A study of Mus musculus with 6 samples.

Results

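Genes of glucose and lactate transport, glycolysis, fructose 2,6-bisphosphate control, lactate dehydrogenase, glycogen turnover and the pyruvate dehydrogenase complex were followed in the hearts of adrenalectomized and sham-operated mice. The set was a list of 35 gene symbols, grouped by pathway and chosen with earlier results of these data known. Every array probe that carried one of these symbols was taken. By this rule 34 of the 35 genes were found, with 61 probes, among 28785 gene names on the array. The missing symbol was Gapdh, the triose phosphate dehydrogenase of glycolysis. Of the 61 probes, 57 were tested, and all 34 genes had a probe well above background on all 6 arrays.

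The adrenalectomized group was 3 male C57BL/6 mice whose adrenal glands had been removed at 1 month of age, and the sham group was 3 male C57BL/6 mice given a sham operation at the same age. Hearts were collected 6 months after surgery, although another label calls the animals 6 months old, so the age at collection differs between the labels. The mice are labelled wild-type, and removal of the whole adrenal takes away cortical and medullary hormones together. Each array measured the bulk RNA of 1 heart, after amplification of 50 ng RNA, in 1 colour (Cy3). In bulk tissue, fewer cells of a type and less RNA per cell cannot be told apart.

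Glucose enters muscle cells through facilitative carriers of the GLUT family and is trapped by hexokinase as glucose 6-phosphate, which is either stored as glycogen or passed down glycolysis to pyruvate. Pyruvate is reduced to lactate by lactate dehydrogenase or oxidised in mitochondria through the pyruvate dehydrogenase complex. The adult heart lives mainly on fatty acids, but draws on glucose and on its own glycogen when work or stress hormones rise. Adrenal glucocorticoids and adrenaline are both regulators of glucose and glycogen metabolism in the body as a whole.

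Several of the enzymes exist as isoforms from separate genes, so the results rest on which transcript a probe reads. The array's 60-base probes are placed on the mm7 mouse genome, and 12 of the 61 probes map to a stretch longer than the probe by more than 1 base, so that they join parts of a transcript that lie apart in the genome. Probes of this kind gave the lowest p of the set (Ugp2), disagreed with the other probes of their gene (Pfkp) or also list a near-identical copy (Eno1, whose probe lists Eno1b). These 3 sequences, 5′ to 3′ as the scanner files give them, are shown because those results depend on them. They were picked after their values were seen. The probes of Gbe1 (chr16:70563084-70563143, plus strand), Pygl (chr12:68131860-68131919, minus strand) and Pgam1 (chr19:41812247-41812306, plus strand) each map to 1 unbroken stretch. Exon annotation for mm7 was not used here.
Ugp2, chr11:21275271-21280897, minus strand: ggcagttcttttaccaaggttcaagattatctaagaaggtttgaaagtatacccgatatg
Pfkp, chr13:6475782-6477936, minus strand: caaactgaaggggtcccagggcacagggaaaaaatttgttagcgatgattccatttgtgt
Eno1, chr4:149233567-149233792, plus strand: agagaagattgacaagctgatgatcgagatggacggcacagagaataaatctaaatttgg

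All levels are log2 processed signal minus the 75th percentile of the array, so 0 is the 75th percentile of that array, and levels of different probes are not comparable with each other. Differences are adrenalectomized minus sham, on the log2 scale, with 3 hearts in each group. Probes entered the test if they exceeded background clearly on every array of 1 group or both, the brightest tested probe stood for its gene, and limma was fitted over 16948 genes with Benjamini-Hochberg adjustment over all of them. The scanner called 57.7% to 66.8% of noncontrol spots well above background, and the 75th percentile of signal ran from 644 to 924 units. The highest shares above background were 66.8% and 63.2%, in adrenalectomized hearts 2 and 3. Adrenalectomized heart 1 and sham hearts 1 to 3 lay on slide 1, and adrenalectomized hearts 2 and 3 on slide 2, so slide 1 alone sets 1 adrenalectomized heart against 3 sham hearts, and differences within slide 1 are given as values with no test. The 10 cardiomyocyte markers were all detected in every heart, and their summed level was 3782 to 4243 in adrenalectomized hearts and 4103 to 4766 in sham hearts, in multiples of the 75th percentile. Of these markers, 8 had lower values in adrenalectomized hearts, beside 44.2% of all genes, with a median difference of -0.17. At an unadjusted p under 0.05 in limma, 1 of them was lower (Tnni3), beside 6.12% of all genes.

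None of the 34 genes passed an adjusted p of 0.05 in limma. Over all genes tested, 7 of 16948 (0.0413%) passed it. At an unadjusted p under 0.05, 4 of the 34 genes were higher in adrenalectomized hearts (11.8%) and 0 were lower, against 6.07% higher and 6.12% lower over all genes. The 4 were Ugp2, Gbe1 and Pygl, of glycogen turnover, and Pgam1, of lower glycolysis. Values were higher in adrenalectomized hearts for 18 genes (52.9%) and lower for 16 (47.1%), beside 55.8% and 44.2% of all genes, and the median difference was 0.037, against 0.028 over all genes. On the probe that stood for each gene, the groups did not overlap in 4 genes that were higher (Ugp2, Gbe1, Pgam1 and Pgk1) and in 1 that was lower (Slc2a4), beside 10.1% and 8.15% of all genes. With 3 hearts against 3, permuting the hearts exactly for a single gene gives no p below 0.1.

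**Figure D1:**
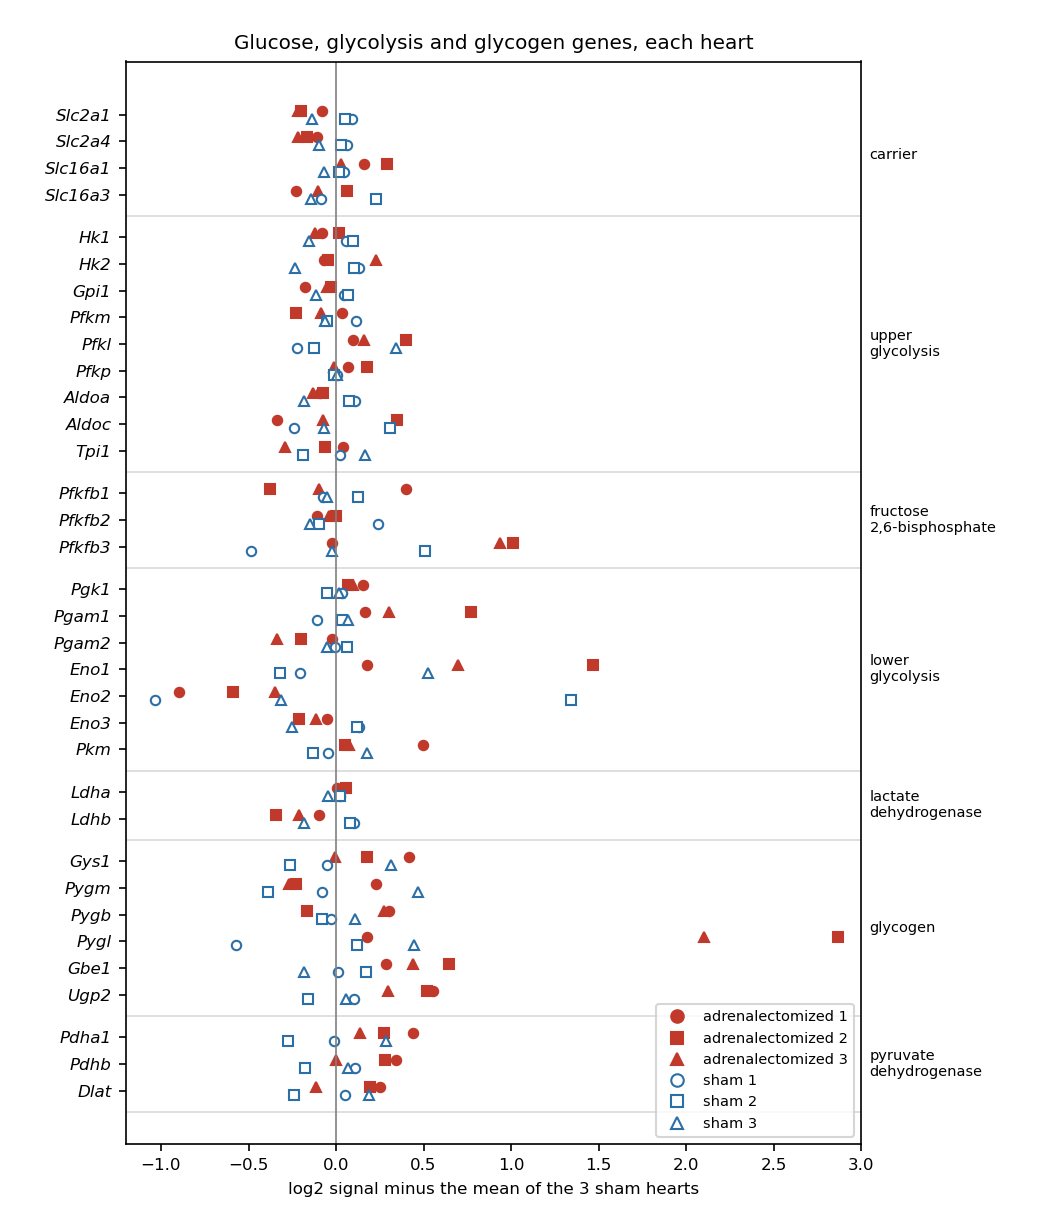
Log2 signal of each of the 34 genes in each heart, as the distance from the mean of the 3 sham hearts (x axis, log2 units), grouped by step; filled red symbols are adrenalectomized hearts and open blue symbols sham hearts. Pygl has adrenalectomized hearts 2 and 3 far to the right, while most carriers and enzymes of upper glycolysis stay close to 0.

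The intervals around these differences rest on the spread between hearts in this 1 fit. They do not cover the slide or the choice of processing. The 95% interval lay within 1.5-fold in both directions for 23 of the 34 genes and within 2-fold for 30. The 4 genes whose interval reached past 2-fold were Pfkfb3, Eno1, Eno2 and Pygl. The spread between hearts of a group was smallest in Ldha (pooled SD 0.035, with 0.472% of all genes below it) and in Pgk1 (pooled SD 0.044, 1.04% below it). It was widest in Pygl (pooled SD 1.05, 99.2% of genes below it). The median difference over the set, taken heart by heart from the sham mean, was 0.057, 0.052 and -0.027 in adrenalectomized hearts 1 to 3, against 0.017, 0.028 and -0.049 in sham hearts 1 to 3, so the groups overlapped.

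**Figure D2:**
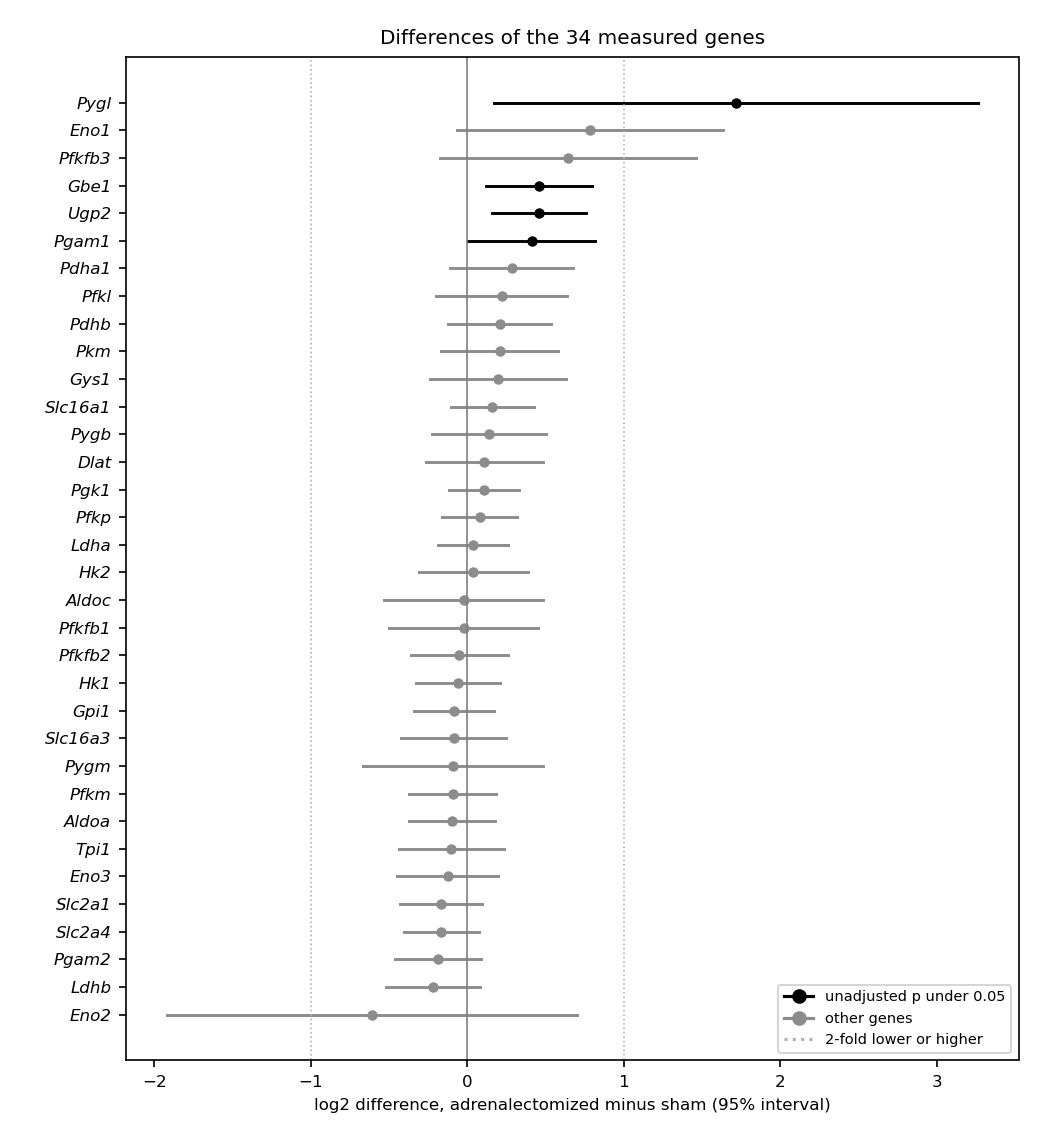
Differences (adrenalectomized minus sham, log2, x axis) with 95% intervals from limma for the 34 genes, in order of size; black marks an unadjusted p under 0.05 and dotted lines mark 2-fold. The intervals of Pygl, Eno1, Pfkfb3 and Eno2 cross the 2-fold lines, and those of Ugp2, Gbe1, Pgam1 and Pygl do not reach 0.

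Glycogen turnover held 3 of the 4 genes at an unadjusted p under 0.05. These were 3 of its 6 genes, beside 6.07% of all genes higher at that level. Of its 6 genes, 5 had higher values in adrenalectomized hearts (all genes, 55.8%), with a median difference of 0.33. Ugp2 makes UDP-glucose, the sugar donor for glycogen. Its level was 3.64, 3.60 and 3.38 in adrenalectomized hearts 1 to 3, against 3.19, 2.92 and 3.14 in sham hearts 1 to 3. All adrenalectomized hearts lay above all sham hearts, and the difference of 0.46 (SE 0.13, unadjusted p = 0.00854, adjusted p = 0.269) by limma corresponds to 1.37-fold (95% interval 1.12 to 1.69). Adrenalectomized heart 1 against the sham hearts of its own slide gave 0.55. The other Ugp2 probe read 3.32, 3.37 and 3.33 in adrenalectomized hearts, against 3.30, 2.98 and 2.94 in sham hearts, a difference of 0.27 (SE 0.13, unadjusted p = 0.0774). On that probe sham heart 1 came close to the adrenalectomized hearts, and the groups did not overlap.

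Gbe1, the branching enzyme that adds side chains to glycogen, was 3.99, 4.34 and 4.14 in adrenalectomized hearts, against 3.71, 3.87 and 3.51 in sham hearts. The lowest adrenalectomized heart was above the highest sham heart, with a difference of 0.46 (SE 0.14, unadjusted p = 0.0154, adjusted p = 0.302) by limma, or 1.37-fold (95% interval 1.08 to 1.74). Within slide 1 the difference was 0.29. Without adrenalectomized heart 2 it was 0.36 (unadjusted p = 0.0549).

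Pygl, the liver isoform of glycogen phosphorylase, had the largest difference of the set. It was 1.58, 4.27 and 3.50 in adrenalectomized hearts 1 to 3, against 0.83, 1.52 and 1.85 in sham hearts 1 to 3. Adrenalectomized hearts 2 and 3 stood far above the others, whereas adrenalectomized heart 1 lay inside the sham range. The difference was 1.72 (SE 0.65, unadjusted p = 0.0341, adjusted p = 0.375) by limma, or 3.29-fold (95% interval 1.13 to 9.59). Within slide 1 it was 0.18, without adrenalectomized heart 1 it was 2.49, and without adrenalectomized heart 2 it was 1.14. A further Pygl probe was well above background on 1 array and was not tested.

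Gys1, the glycogen synthase of muscle, was 1.14, 0.90 and 0.72 in adrenalectomized hearts, against 0.67, 0.46 and 1.04 in sham hearts. The groups overlapped and the difference was 0.20 (SE 0.18, unadjusted p = 0.317). Pygm, the muscle glycogen phosphorylase, was 4.57, 4.12 and 4.07 in adrenalectomized hearts, against 4.26, 3.95 and 4.81 in sham hearts. Sham heart 3 was its highest and sham heart 2 its lowest, and the difference was -0.089 (SE 0.24, unadjusted p = 0.726). Pygm had the opposite direction within slide 1, where the difference was 0.23. Pygb, the brain isoform of phosphorylase, had a difference of 0.14 (SE 0.15, unadjusted p = 0.404).

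**Figure D3:**
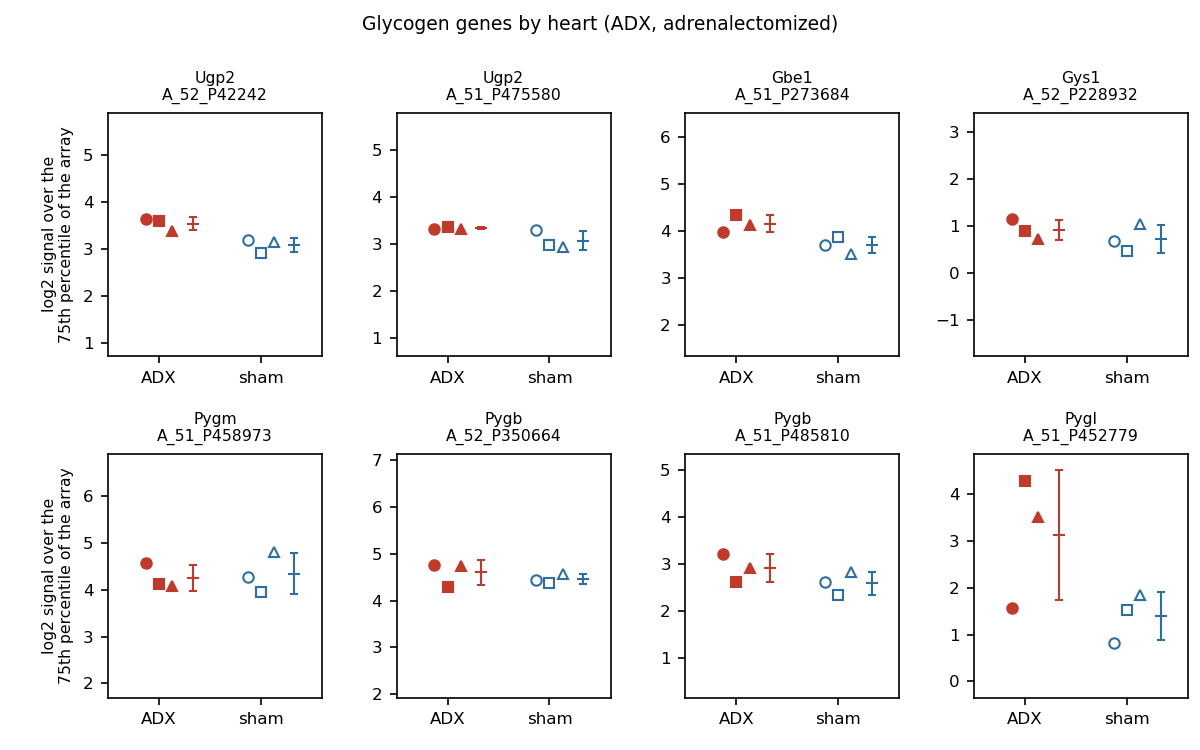
Level of the glycogen genes in each heart (y axis, log2 signal over the 75th percentile of the array, the same span in every panel; probe names above), adrenalectomized (ADX, filled) left and sham (open) right, with mean and SD of 3 hearts beside the points. All 3 adrenalectomized hearts lie above all sham hearts for Ugp2 and Gbe1, and Pygl is high in adrenalectomized hearts 2 and 3.

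Pygl was read beside markers of fat, since the 6 adipocyte markers well above background on all arrays had higher values in adrenalectomized hearts, with a median difference of 1.36. Of these, 3 (Ucp1, Plin1 and Cidea) were at an unadjusted p under 0.05, beside 6.07% of all genes higher at that level. None was at an adjusted p under 0.05. As a distance from the sham mean, the median of these markers was 0.20, 2.13 and 1.81 in adrenalectomized hearts 1 to 3, against -1.26, 0.90 and 0.17 in sham hearts 1 to 3. Adrenalectomized hearts 2 and 3 were thus the high hearts for Pygl and for the markers alike. These 2 hearts are also those of slide 2, which formed a separate scan batch. Within the adrenalectomized group the pattern cannot be told apart from slide or scan batch. Ucp1, the uncoupling protein of brown fat, was 4.196, 6.42 and 6.16 in adrenalectomized hearts, against 1.11, 3.21 and 3.82 in sham hearts. Summed over the 6 markers, fat signal was 95.4 to 325 in adrenalectomized hearts and 56.6 to 115 in sham hearts, in multiples of the 75th percentile. Of the other listed markers, Elovl3 was well above background on the 3 adrenalectomized arrays and 0 of the 3 sham arrays, so it entered the test through the adrenalectomized group alone. Lep was above background on too few arrays to be tested. Other marker medians had the same order in adrenalectomized hearts 1 to 3, over genes well above background on all arrays. They were 0.17, 1.17 and 0.35 for lymphocyte markers and -0.16, 0.97 and 0.46 for epithelial markers. Nerve and glia markers had -0.45, 0.49 and -0.030. The part of fat tissue or of these other cells in the Pygl difference was not tested.

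Eno1 and Pfkfb3 were high in the same 2 hearts, those of slide 2. Eno1, the enolase found in most cell types, was -0.19, 1.11 and 0.33 in adrenalectomized hearts, against -0.57, -0.69 and 0.16 in sham hearts. Sham heart 3 exceeded adrenalectomized heart 1, and the difference was 0.78 (SE 0.36, unadjusted p = 0.0663, adjusted p = 0.441) by limma, with 0.18 within slide 1. Pfkfb3, which makes the glycolysis activator fructose 2,6-bisphosphate, was 0.79, 1.83 and 1.76 in adrenalectomized hearts, against 0.33, 1.33 and 0.79 in sham hearts. Its groups overlapped, its difference was 0.64 (SE 0.35, unadjusted p = 0.106), and within slide 1 it was -0.025. Another Pfkfb3 probe, which joins separated stretches, had a difference of -0.056 (SE 0.31, unadjusted p = 0.862). The adipocyte values above stand beside both genes, and their part was not tested.

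Ugp2 was highest in adrenalectomized heart 1. Gbe1 was highest in adrenalectomized heart 2 and lowest in heart 1, the same order as the adipocyte markers within that group. For both genes the part of fat tissue was not tested.

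**Figure D4:**
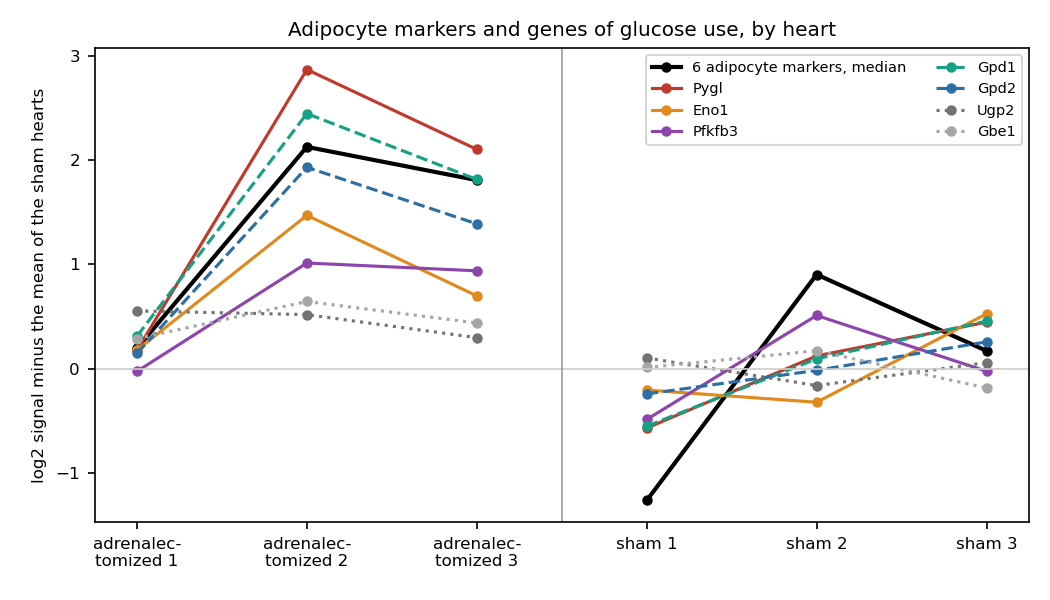
Distance from the sham mean (y axis, log2) in each heart for the median of 6 adipocyte markers (black), Pygl, Eno1 and Pfkfb3 (solid), Gpd1 and Gpd2 (dashed) and Ugp2 and Gbe1 (dotted); lines only join points of a group, and hearts have no order. Adrenalectomized hearts 2 and 3 are high in the markers, Pygl, Eno1, Gpd1 and Gpd2, and Ugp2 is highest in adrenalectomized heart 1.

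Glucose and lactate carriers had lower values in 3 of 4 genes (all genes, 44.2%), none at an unadjusted p under 0.05, with a median difference of -0.13. Slc2a4 encodes GLUT4, the insulin-responsive carrier of muscle and fat. It was 6.61, 6.56 and 6.50 in adrenalectomized hearts, against 6.79, 6.76 and 6.63 in sham hearts. The groups did not overlap, by a narrow gap between adrenalectomized heart 1 and sham heart 3, and the difference was -0.17 (SE 0.10, unadjusted p = 0.147). The 10 cardiomyocyte markers had a median difference of -0.17, and their part in the Slc2a4 value was not tested. Slc2a1, the basal carrier GLUT1, was 1.67, 1.56 and 1.54 in adrenalectomized hearts, against 1.85, 1.81 and 1.62 in sham hearts. Sham heart 3 lay below adrenalectomized heart 1, so the groups overlapped, and the difference was -0.17 (SE 0.11, unadjusted p = 0.18). The monocarboxylate carriers had differences of 0.16 (SE 0.11, unadjusted p = 0.19) for Slc16a1 and -0.088 (SE 0.14, unadjusted p = 0.554) for Slc16a3.

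Hexokinase, which traps glucose, and phosphofructokinase, which commits it to glycolysis, were close to the sham values. Hk1, the hexokinase present in most tissues, was 4.84, 4.93 and 4.80 in adrenalectomized hearts, against 4.98, 5.01 and 4.76 in sham hearts. Hk2, the insulin-responsive hexokinase of muscle, was 5.46, 5.48 and 5.76 in adrenalectomized hearts, against 5.67, 5.63 and 5.30 in sham hearts. Both overlapped between groups, with differences of -0.062 (SE 0.11, unadjusted p = 0.603) for Hk1 and 0.037 (SE 0.15, unadjusted p = 0.808) for Hk2, and Hk2 had the opposite direction within slide 1 (-0.069). The 6 tested Hk1 probes did not share a direction, with differences from -0.36 to 0.36.

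Pfkm, the muscle phosphofructokinase, was 7.40, 7.14 and 7.28 in adrenalectomized hearts, against 7.48, 7.31 and 7.30 in sham hearts. The groups overlapped, with a difference of -0.094 (SE 0.12, unadjusted p = 0.446), and it was 0.034 within slide 1. Pfkfb2, the heart isoform of the enzyme that makes and removes fructose 2,6-bisphosphate, was 0.60, 0.71 and 0.67 in adrenalectomized hearts, against 0.95, 0.61 and 0.56 in sham hearts. Sham heart 1 was its highest value, and the difference was -0.05 (SE 0.13, unadjusted p = 0.716). Other Pfkfb2 probes had differences of 1.08 (SE 0.64, unadjusted p = 0.136), -0.23 (SE 0.15, unadjusted p = 0.169) and 0.18 (SE 0.21, unadjusted p = 0.425) in the limma fit over all probes. On the probe with 1.08 sham heart 1 was instead the lowest, at -4.54. The probes with 1.08 and 0.18 were each well above background on 5 arrays.

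Pfkp, the platelet-type phosphofructokinase, had a small difference on its brightest probe and lower values in adrenalectomized hearts on its other probes. The probe shown above was 0.98, 1.08 and 0.89 in adrenalectomized hearts, against 0.91, 0.89 and 0.91 in sham hearts, a difference of 0.078 (SE 0.10, unadjusted p = 0.477) in the fit over all probes. The probe at chr13:6473188-6473247 on the minus strand was -2.56, -2.28 and -2.51 in adrenalectomized hearts, against -1.88, -1.71 and -2.32 in sham hearts. Adrenalectomized hearts 1 and 3 lay below all sham hearts there and heart 2 just above the lowest sham heart, with a difference of -0.48 (SE 0.18, unadjusted p = 0.0317). The probe at chr13:6482360-6482419, also on the minus strand, had a difference of -0.29 (SE 0.28, unadjusted p = 0.343). Direction differed between probes in 6 of the 15 genes that had 2 or more tested probes (Eno2, Hk1, Pfkfb2, Pfkfb3, Pfkp and Slc16a1), and no probe of the set passed an adjusted p of 0.05.

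The representative probes of the remaining upper glycolytic genes ranged from -0.10 (Tpi1) to 0.22 (Pfkl), with Gpi1, Aldoa and Aldoc between them, and none reached an unadjusted p of 0.05. The Aldoa probe of this range, with a difference of -0.099, was saturated on 3 of the 6 arrays, so its value there is a lower limit. The other Aldoa probe was saturated on none and had a difference of -0.13 (SE 0.11, unadjusted p = 0.289). The coordinates given for that probe cover 15 bases, fewer than its 60. Pfkfb1, the liver-type bifunctional enzyme, had a difference of -0.024 (SE 0.20, unadjusted p = 0.91).

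Lower glycolysis had 1 of 7 tested genes at an unadjusted p under 0.05, beside 6.07% of all genes higher at that level. Pgam1, the phosphoglycerate mutase found in most tissues, was 4.70, 5.30 and 4.84 in adrenalectomized hearts, against 4.43, 4.57 and 4.61 in sham hearts. Adrenalectomized heart 2 was the highest, the groups did not overlap, and the difference was 0.41 (SE 0.17, unadjusted p = 0.047, adjusted p = 0.406) by limma, or 1.33-fold (95% interval 1.00 to 1.76). It was 0.17 within slide 1 and 0.23 without adrenalectomized heart 2, and the probe lists further sequence entries that were not matched to a gene here. Within the adrenalectomized group Pgam1 was highest in heart 2 and lowest in heart 1. The adipocyte, lymphocyte, epithelial, and nerve and glia markers had the same order, and the part of fat tissue or of these cells was not tested. Pgk1, phosphoglycerate kinase, was 6.04, 5.95 and 5.98 in adrenalectomized hearts, against 5.92, 5.84 and 5.90 in sham hearts. Its groups were apart by a small gap, and its difference was 0.11 (SE 0.096, unadjusted p = 0.301). The other Pgk1 probe, on an overlapping stretch, was 5.73, 5.65 and 5.70 in adrenalectomized hearts, against 5.73, 5.61 and 5.68 in sham hearts. There the groups overlapped, with a difference of 0.019 (SE 0.10, unadjusted p = 0.857) in the limma fit over all probes.

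The muscle isoforms of lower glycolysis were lower in value. Pgam2 and Eno3, the mutase and the enolase of muscle, had differences of -0.19 (SE 0.12, unadjusted p = 0.155) and -0.13 (SE 0.14, unadjusted p = 0.388). The cardiomyocyte markers had a median difference of -0.17, and their part in the Pgam2 and Eno3 values was not tested. Eno2, the neuronal enolase, had the most negative difference of the set, -0.61 (SE 0.55, unadjusted p = 0.307). Sham heart 2 alone was high for Eno2, at -1.05 against -3.42 and -2.70 in sham hearts 1 and 3. The other Eno2 probe did not show this, with sham heart 2 at -3.51 and a difference of 0.067 (SE 0.14, unadjusted p = 0.65). Its given coordinates cover 34 bases, fewer than the 60 of the probe. Pkm, pyruvate kinase, had a difference of 0.21 (SE 0.16, unadjusted p = 0.233) and was 0.50 within slide 1. For Gapdh, 2 probes filed under other names (MGC68323 and LOC380687) list its accession among several near-identical copies, and they had differences of 0.15 (SE 0.18, unadjusted p = 0.426) and -0.17 (SE 0.16, unadjusted p = 0.323).

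Ldha, the lactate dehydrogenase subunit that predominates in glycolytic muscle, was 7.08, 7.13 and 7.13 in adrenalectomized hearts, against 7.10, 7.10 and 7.03 in sham hearts. On this probe the 6 hearts lay close together and the groups overlapped, with a difference of 0.038 (SE 0.094, unadjusted p = 0.701). The other Ldha probe, which joins separated stretches, was 6.23, 6.02 and 6.09 in adrenalectomized hearts, against 5.89, 5.94 and 5.90 in sham hearts. There the groups did not overlap, with a difference of 0.20 (SE 0.11, unadjusted p = 0.1002) in the limma fit over all probes. Ldhb, the subunit that predominates in heart, was 8.97, 8.73 and 8.86 in adrenalectomized hearts, against 9.17, 9.15 and 8.89 in sham hearts. Sham heart 3 lay below adrenalectomized heart 1, and the difference was -0.22 (SE 0.13, unadjusted p = 0.13). Beside it, the median difference of the cardiomyocyte markers was -0.17, and their part in the Ldhb value was not tested.

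All 3 genes of the pyruvate dehydrogenase complex had higher values in adrenalectomized hearts (all genes, 55.8%), none at an unadjusted p under 0.05, with a median difference of 0.21. Pdha1, the catalytic alpha subunit, was 4.65, 4.48 and 4.35 in adrenalectomized hearts, against 4.197, 3.94 and 4.49 in sham hearts. Sham heart 3 overlapped the adrenalectomized hearts, and the difference was 0.28 (SE 0.17, unadjusted p = 0.132). Pdhb, the beta subunit, and Dlat, the acetyltransferase core, had differences of 0.21 (SE 0.14, unadjusted p = 0.179) and 0.11 (SE 0.16, unadjusted p = 0.515). On the probe that stood for each of the 3 genes, adrenalectomized heart 1 was the highest of its group and sham heart 2 the lowest of all hearts. The other Pdhb probe shared this, and the other probes of Pdha1 and Dlat did not. That of Pdha1 was highest in adrenalectomized heart 2 (4.07) and lowest in adrenalectomized heart 3 (3.78). Its difference was 0.014 (SE 0.12, unadjusted p = 0.913) in the limma fit over all probes. That of Dlat was lowest in sham heart 3, with a difference of 0.17 (SE 0.11, unadjusted p = 0.181).

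A log ratio between isoforms within a heart is free of any constant factor applied to its array, though not of the background correction or of quantile normalization, and 11 pairs were compared by an exact two-sided permutation test, with Benjamini-Hochberg adjustment over the pairs. The ratio of Pgam1 to the muscle gene Pgam2 was higher in adrenalectomized hearts by 0.60, without overlap between groups (exact p = 0.1, the smallest possible, adjusted p = 0.55). The ratio of Pygl to Pygm differed by 1.81 (exact p = 0.3) and that of Eno1 to Eno3 by 0.91 (exact p = 0.2), and both overlapped. Ldha over Ldhb was higher by 0.26 (exact p = 0.2). The GLUT1 to GLUT4 ratio was the most even of the pairs, with a difference of 0.00074 (exact p = 0.9) and SDs of 0.029 in adrenalectomized and 0.038 in sham hearts. No pair passed after adjustment, and this design could not have passed any.

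**Figure D5:**
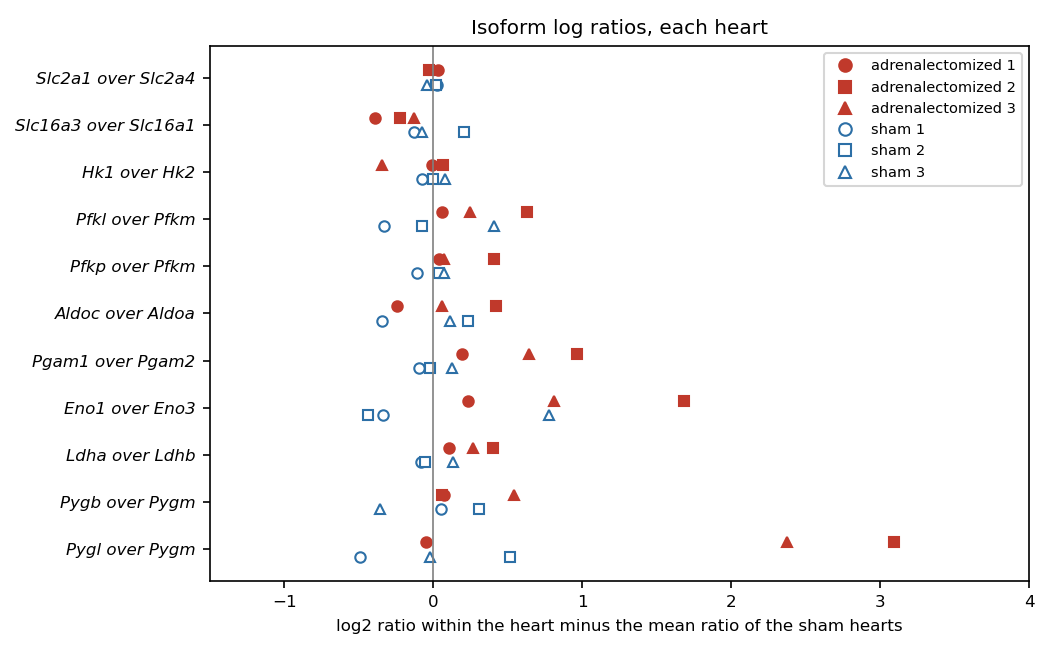
Log2 ratio of isoform pairs within each heart, as the distance from the mean ratio of the sham hearts (x axis); filled red symbols are adrenalectomized and open blue symbols sham hearts. Of the 11 pairs, Pgam1 over Pgam2 is the one that keeps the groups apart, and Slc2a1 over Slc2a4 stays close to 0 in all 6 hearts.

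Genes around the set were taken from 7 lists with 84 genes, 81 of them on the array and 77 tested. None passed an adjusted p of 0.05 in limma, 9 were higher and 8 lower at an unadjusted p under 0.05, beside 6.07% and 6.12% of all genes, and values were higher for 42 and lower for 35, beside 55.8% and 44.2% of all genes. Over the 75 of them that were well above background on all arrays, 8 were higher and 8 lower at an unadjusted p under 0.05. Among glycogen regulators, Gsk3b, the kinase that inhibits glycogen synthase, was -2.28, -2.32 and -2.19 in adrenalectomized hearts, against -1.66, -1.66 and -1.79 in sham hearts. The groups were apart, with the smallest p of the 7 lists, a difference of -0.56 (SE 0.10, unadjusted p = 0.000936) and an adjusted p of 0.165. Epm2a, the glycogen phosphatase laforin, was lower by value in all adrenalectomized hearts, at -0.84 (SE 0.22, unadjusted p = 0.00607). Of the 20 genes in that list well above background on all arrays, 1 was higher (Ppp1r3b) and 2 lower (Gsk3b and Epm2a) at an unadjusted p under 0.05. Gys2, the liver glycogen synthase, had a difference of 3.03 (SE 0.93). It was not well above background in sham heart 1, so it entered the test through the adrenalectomized group alone.

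In the insulin signal to GLUT4, Pik3r1, a regulatory subunit of phosphoinositide 3-kinase, had a difference of -0.59 (SE 0.13, unadjusted p = 0.00231), while Akt2, the kinase that moves GLUT4 to the surface, had one of 0.36 (SE 0.11, unadjusted p = 0.0115). Neither gene overlapped between groups. Of the 9 genes tested there, 1 was higher and 3 lower at an unadjusted p under 0.05, beside 6.07% and 6.12% of all genes. The glycerol phosphate dehydrogenases Gpd1 and Gpd2, of the triose branch, had differences of 1.52 (SE 0.54, unadjusted p = 0.025) and 1.16 (SE 0.42, unadjusted p = 0.0297) and were high in adrenalectomized hearts 2 and 3, as the adipocyte markers were. Gpd1 was 5.70, 7.83 and 7.20 in adrenalectomized hearts, against 4.84, 5.48 and 5.84 in sham hearts. Pgd and Taldo1, of the pentose phosphate pathway, had differences of 0.87 (SE 0.30, unadjusted p = 0.0212) and 0.54 (SE 0.19, unadjusted p = 0.0273). In that list 3 of 11 tested genes were higher and 1 lower at an unadjusted p under 0.05, beside 6.07% and 6.12% of all genes. For these genes too the part of fat tissue was not tested, and adrenalectomized hearts 2 and 3 are those of slide 2.

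Among further carriers, Slc16a7 and Slc2a3 had differences of 0.82 (SE 0.24, unadjusted p = 0.0105) and 0.38 (SE 0.17, unadjusted p = 0.0635). At pyruvate entry, Pcx, pyruvate carboxylase, and Dld, a shared dehydrogenase subunit, had differences of 0.45 (SE 0.19, unadjusted p = 0.0515) and 0.26 (SE 0.13, unadjusted p = 0.0836), and 0 of 7 genes reached an unadjusted p of 0.05. Of 10 transcription factors of glycolytic genes, 2 were lower at that level and 0 higher, beside 6.12% and 6.07% of all genes. The 2 were Mef2c at -0.77 (SE 0.22, unadjusted p = 0.0109) and Ppargc1a, a coactivator of mitochondrial genes, at -0.86 (SE 0.29, unadjusted p = 0.02).

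The promoters of 34 of the listed genes, Gapdh included, were matched in RefSeq (GRCm38.p6, windows of 300 bases that end just after the start). The letters ACGTG on either strand, the core of hypoxia-response elements and of one form of E-box, were in 17 of them (50%), against 19.7% of 27025 promoters. The letters AGAACA on either strand, a glucocorticoid receptor half-site, were in 5 (14.7%), against 19.0%. Ugp2, Pygl and Pgam1 were among those that held ACGTG and Gbe1 was not. These are matches of letters only.

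Markers of other cell types also had different values in the groups. The 7 atrial markers were all lower at an unadjusted p under 0.05, beside 6.12% of all genes. Their summed level was 1103 to 1170 in adrenalectomized hearts and 1406 to 2170 in sham hearts. The 4 cycling-cell markers well above background on all arrays were all higher at an unadjusted p under 0.05, beside 6.07% of all genes. Their sums were 2.4 to 3.19 in adrenalectomized hearts and 1.29 to 1.44 in sham hearts. Cdk1 was above background on 2 of 3 sham arrays and Ccnb1 on 0 of them, so both entered the test through the adrenalectomized group alone. Of 7 fibroblast markers, 6 had lower values, beside 44.2% of all genes, and 2 (Col3a1 and Dcn) were lower at an unadjusted p under 0.05, beside 6.12%. The fibroblast sums of 179 to 203 in adrenalectomized hearts and 211 to 258 in sham hearts did not overlap. Red cell markers summed to 297 to 844 in adrenalectomized hearts and 383 to 586 in sham hearts, and macrophage and neutrophil markers to 98.2 to 117 in adrenalectomized hearts and 90.1 to 109 in sham hearts, both with overlap. The part of these in the values of the 34 genes was not tested.

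Of 22 alternative settings, normexp on the local background was the one in which any of the 34 genes passed the adjusted threshold. There 14 of the 34 genes passed an adjusted p of 0.05 in limma, 12 higher (Slc16a1, Pfkl, Pgk1, Pgam1, Pkm, Pygb, Pygl, Gbe1, Ugp2, Pdha1, Pdhb and Dlat) and 2 lower (Aldoc and Eno2), while over all genes 7% were higher and 27.9% lower. The difference then followed signal level across the array. In the brightest of 4 equal bins of genes its median was 0.33 and 21.8% were called higher, and in the dimmest bin its median was -0.91 and 87.6% were called lower. Of the 34 genes, 25 lay in the brightest bin, and the 12 called higher were all among them. Under the processed signals the median was 0.0041 in the brightest and 0.079 in the dimmest bin.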

How the data were processed

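RNA of 6 hearts (3 adrenalectomized, 3 sham) was hybridised to 1-colour Agilent arrays, after amplification of 50 ng RNA and Cy3 labelling of 5 µg cDNA, per the labels' protocols. The deposited processed signal is a linear intensity, read by Feature Extraction 9.5.3.1 with protocol GE1-v5_95_Feb07 and background-subtracted and detrended within each array, per the file headers. Very low intensities carry a surrogate in the deposited files (15.3% to 22.0% of spots outside controls). The series' deposited table of values equals the scanner signal at each of 45018 spots per array, so it is linear and uncentred, with column medians of 75.1, 92.2 and 80.9 for adrenalectomized and 70.8, 68.1 and 84.4 for sham hearts. Probe coordinates are those of the mm7 design.

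Outlier-flagged and control spots were left out, log2 signals had the 75th percentile of their array subtracted, and spots of a probe were averaged. The model was limma's (3.58.1, R 4.3.3; lmFit, then eBayes), two-sided, with Benjamini-Hochberg adjustment at 0.05, and probes were fitted in the same way. The script was tested on simulated data. Tables and figures were made with pandas 2.3.3, scipy 1.17.1 and matplotlib 3.10.9 under Python 3.11.15. The design text calls the samples biological replicates, and the small number of arrays limits the precision. The members, the other lists and the tests were chosen with earlier results of these data known.

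Members named in full were those at an unadjusted p under 0.05, the carriers and enzymes that set heart glucose use, and those whose probes differed in sign with 1 at that level, plus the 2 genes of smallest p in each list. Eno1, Pfkfb3, Pgk1 and Eno2 were added after their values were seen. Counts of lists over genes well above background on all arrays, and sums of markers over those genes, were also added after the data were seen. Probe sequences that lie in 1 stretch were not printed, since whether they are coding was not determined here. Alternatives were 2 normexp background corrections (offset 50), 3 other scalings, the deposited table, changed filters on dim or outlier spots, averaging a gene's probes, the slide or the replicate number as a block, slide 1 alone, other variance models and each array left out.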

Additional observations from a re-analysis of the deposited data

How the results depend on the processing

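The count of the 34 genes past an adjusted p of 0.05 was 0 in 21 of 22 alternatives and 14 with normexp on the local background, where 31 of their probes passed, 15 genes were at an unadjusted p under 0.05 (against 4) and the median difference was 0.30. Under it the lists of further carriers, insulin signal, other glycolytic genes, glycogen turnover, pyruvate entry, pentose phosphate and hexosamine branches, and transcription factors held 2, 7, 3, 4, 4, 6 and 1 genes past the threshold, against 0 in each. That correction gave opposite directions for Slc2a1 (0.073), Slc2a4 (0.21), Hk1 (0.28), Pfkm (0.27), Pfkfb2 (0.090), Ldhb (0.16) and Pygm (0.28), and for the ratios Slc2a1 over Slc2a4 (-0.14), Pfkp over Pfkm (-0.047) and Aldoc over Aldoa (-1.26). The cause was not tested. Over all genes, the count past the threshold was 7, against 5918 with normexp on the local background, 0 with normexp on negative controls, 2 with the percentile over detected probes, 2 with outlier spots kept, 1 with probes above background on all arrays, 1 with no filter, 2 with the mean of probes, 1 with the slide as a fixed block, 43 on slide 1 alone, 13 with a variance trend and robust estimation, and 75 with array weights. Leaving out 1 array gave 1 to 42 genes, the highest without adrenalectomized heart 1, and 1 to 6 of the 34 genes at an unadjusted p under 0.05. That number was 2 with no filter (Gbe1 and Ugp2), 2 with the slide as a fixed block (Pkm and Ugp2) and 9 with array weights. It was 3 with quantile normalization, with median centring and with the percentile over detected probes, each time without Pgam1. With normexp on negative controls it was 3, without Ugp2. With a variance trend and robust estimation it was 3, without Pygl. The fit on slide 1 holds 1 adrenalectomized heart, which is assumed to vary like the sham hearts.

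Ugp2, Gbe1, Pgam1, Pygl, Gys1, Ldha and Pdha1 had higher values in adrenalectomized hearts in all 22 alternatives, with ranges of 0.25 to 0.57 for Ugp2, 0.29 to 0.77 for Gbe1, 0.17 to 0.75 for Pgam1 and 0.18 to 2.49 for Pygl. Quantile normalization turned Pfkm (0.016). The mean of probes turned Hk1 (0.072), Pfkfb2 (0.24), Pfkp (-0.23), Hk1 over Hk2 (0.035) and Pfkp over Pfkm (-0.13). The slide as a fixed block, and slide 1 alone, turned Hk2 (-0.069), Pfkm (0.034) and Pygm (0.23). Array weights turned Hk2 (-0.079) and Pygm (0.0080), and normexp on negative controls turned Aldoc over Aldoa (-0.059). Leaving out 1 array gave -0.12 to 0.071 for Pfkfb2, -0.080 to 0.10 for Hk2, -0.28 to 0.15 for Pygm, -0.097 to 0.24 for Aldoc over Aldoa, -0.021 to 0.016 for Slc2a1 over Slc2a4 and -0.18 to 0.025 for Hk1 over Hk2. With the replicate number as a block, 1 gene passed over the array, 0 of the 34 passed and 5 were at an unadjusted p under 0.05. Deviations from the group means of same-numbered hearts correlated at r = 0.16, 0.16 and -0.16, and adrenalectomized heart 3 correlated best with sham heart 2 and not with its own number. Within slide 1, 28 of the 34 genes kept their direction. Signal was well above background in all 6 hearts for all 34 genes, 2 of which lay in the dimmest of 4 bins of level, and the Aldoa probe was saturated on 3 arrays.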
